A study of Mus musculus with 574 samples.

Results

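This account covers 10 genes that cells switch on within minutes of a stimulus or of stress. They are 8 immediate early genes (Fos, Fosb, Jun, Junb, Egr1, Atf3, Ier2 and Dusp1) and the pair of inducible heat shock genes Hspa1a and Hspa1b, chosen by name. All 10 are in both deposited tables, of 23706 genes in the table of pools and 25489 in the table of single cells. Ventral midbrain cells came from C57BL/6 mouse embryos heterozygous for Lmx1a-EGFP, a reporter that marks cells using the floor plate gene Lmx1a with green fluorescent protein (GFP), and libraries were made by Smart-seq2, which copies whole transcripts into cDNA. E10.5 and E13.5 (E for embryonic day) each have 6 pools of 100 GFP positive (GFP+) cells and 6 of 100 GFP negative (GFP-) cells, 24 pools in all. The 550 single cells are divided into E10.5 (24.9%), E11.5 (16.4%, or 90 cells), E12.5 (32.4%) and E13.5 (26.4%). Single cells carry no GFP label, and no treatment is labelled for any library. No embryo, litter or handling time is labelled either, so a p-value here reflects variation from pool to pool, possibly technical in origin, and the cells of a stage are treated as a single sample.

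Immediate early genes need no new protein for their first transcription: kinases of the MAP kinase and calcium pathways activate factors that already sit on their promoters, and the transcripts decay quickly. Fos, Fosb, Jun and Junb encode subunits of the AP-1 transcription factor, Egr1 and Atf3 encode other transcription factors, Ier2 encodes a nuclear protein and Dusp1 a phosphatase that switches MAP kinases off. Hspa1a and Hspa1b encode the inducible HSP70 chaperone, which the heat shock factor Hsf1 drives when proteins misfold. Enzymatic dissociation and sorting are known to induce many of these genes in live cells, while neuronal activity and growth factors induce the immediate early ones in tissue.

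The tables behave as the labels say for the reporter and its gene. EGFP lay between 51.1 and 231 RPKM (reads scaled to transcript length and to the depth of the library) in the 12 GFP+ pools and between 0 and 5.82 in the 12 GFP- pools, and Lmx1a between 46.3 and 85.5 against 0.116 to 3.88. Depth, estimated roughly from the steps between low values, was 1.27 to 3.59 M reads for pools, and for single cells 0.393 to 7.62 M reads. Pools had 13313 to 14499 genes at an RPKM of 1 or more. By stage, from the earliest, cells had a median of 5748, 3567, 4266 and 4287 such genes, so E10.5 cells were the richest. GFP- pools held more transcripts of other cell types than GFP+ pools at E10.5, as given below beside the results they move with.

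The stretch of 200 bases upstream of the RefSeq start is shown for Fos, Atf3, Dusp1, Jun and Hspa1a, as examples that hold the short motifs marked below. Sequences are from RefSeq (GRCm38.p6), read 5′ to 3′ on the gene's strand, and capitals mark matches, on either strand, to TGACGT (the core of the cAMP response element, bound by CREB and ATF factors), GAANNTTC (paired heat shock element units), CCAAT and TATAAA. The Fos stretch is chr12:85473690-85473889 on the plus strand, and the others lie on the minus strand, at chr1:191183334-191183533 for Atf3, chr17:26508473-26508672 for Dusp1, chr4:95052223-95052422 for Jun and chr17:34972157-34972356 for Hspa1a. The Atf3 and Dusp1 stretches lie inside the longest annotated span of their own gene, which has further starts upstream.
Fos: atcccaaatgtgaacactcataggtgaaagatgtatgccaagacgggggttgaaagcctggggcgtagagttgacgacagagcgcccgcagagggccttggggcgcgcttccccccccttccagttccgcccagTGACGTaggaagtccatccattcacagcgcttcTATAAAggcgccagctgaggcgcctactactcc
Atf3: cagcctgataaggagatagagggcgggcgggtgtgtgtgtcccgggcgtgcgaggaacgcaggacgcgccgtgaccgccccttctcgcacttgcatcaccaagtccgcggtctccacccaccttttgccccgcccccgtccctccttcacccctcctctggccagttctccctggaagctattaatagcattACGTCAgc
Dusp1: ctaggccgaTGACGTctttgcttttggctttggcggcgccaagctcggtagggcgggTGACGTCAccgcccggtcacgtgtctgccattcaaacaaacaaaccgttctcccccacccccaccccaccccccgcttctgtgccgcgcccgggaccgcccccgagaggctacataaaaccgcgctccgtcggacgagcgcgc
Jun: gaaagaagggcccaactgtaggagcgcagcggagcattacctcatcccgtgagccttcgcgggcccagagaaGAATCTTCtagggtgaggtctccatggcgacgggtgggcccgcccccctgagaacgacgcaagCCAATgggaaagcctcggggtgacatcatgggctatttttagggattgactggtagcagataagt
Hspa1a: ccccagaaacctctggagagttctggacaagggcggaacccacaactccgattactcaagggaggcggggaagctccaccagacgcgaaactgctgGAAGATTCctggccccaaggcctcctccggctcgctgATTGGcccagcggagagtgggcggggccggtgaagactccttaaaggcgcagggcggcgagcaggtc

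Within 250 bases upstream, TGACGT was found in 3 of the 8 members that the table of promoters holds, Fos, Atf3 and Dusp1, against 6.47% of all 32851 promoters. It began 66 bases upstream of the start in Fos and 8 in Atf3, and Dusp1 held it 3 times, at 191 bases and, nearer to the start, as an overlapping pair on opposite strands that forms the palindrome TGACGTCA. GAANNTTC was found in 3 of 8 (Jun, Hspa1a and Hspa1b), against 6.69% of all promoters, and CCAAT in 4 of 8 (Jun, Junb, Hspa1a and Hspa1b), against 33.8%. The Hspa1a and Hspa1b windows share 247 of 250 bases, so both counts include nearly the same sequence again. Jun, an early gene, thus holds both motifs as the heat shock pair does. TATAAA was found in Fos alone of the 8, against 12.4% of all promoters. Neither TGANTCA, the AP-1 site, nor the CArG box of serum response factor was found in the 8 windows, against 6.75% and 1.47% of all promoters. Egr1 and Ier2 were not among the 8, and sites further upstream than 250 bases were not searched. These matches describe letters and not binding.

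The heat shock pair can be told apart by reads only in part. Hspa1a and Hspa1b share 247 of 250 upstream bases (98.8%), and 1716 of the 2918 stretches of 50 bases in the Hspa1a transcript (58.8%) also occur in that of Hspa1b. How the authors counted reads that fit both is not given in the sources used here, so the split between the pair is uncertain. The pair lies side by side on chromosome 17 (GRCm38, Hspa1b at 34956436 to 34959238 and Hspa1a at 34969190 to 34972156, both on the minus strand), and 564 of the 2967 exon bases of Hspa1a overlap an exon of the antisense gene Gm20481. Exons of the other members share no base with exons of another gene in the GENCODE M21 basic annotation, which holds a subset of transcripts.

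Between E10.5 and E13.5 most early genes fell, and did so unequally. In GFP+ pools 5 of the 9 members tested fell, namely Atf3, Jun, Ier2, Fosb and Fos, against 29.6% of all 15871 genes tested that fell, and 1, Egr1, rose, against 22.1%. In GFP- pools 6 of 9 fell, the same 5 and Egr1, against 26.9% of all genes, and none rose, against 19.7%. Genes that fell in both classes numbered 3278 (20.7% of those tested). The comparisons of stages and of GFP classes share pools, so their results are not independent of each other. A call here is an adjusted p under 0.05 from limma on log2(RPKM + 1), with Benjamini-Hochberg adjustment over all 15871 genes. Both comparisons have a median log2 difference below 0 over all genes (-0.14 and -0.11), and the members' medians were -0.78 and -0.86. In bulk samples, fewer cells of a type and less RNA per cell cannot be told apart. Markers of neurons moved with these comparisons, their summed RPKM over 8 genes going from 277 to 457 up to 3762 to 4224 where GFP was positive and from 1273 to 2317 up to 4088 to 4682 where it was negative. Summed progenitor markers went the other way, from 2941 to 3445 down to 1504 to 2252 in the first class and from 2690 to 3478 down to 591 to 1544 in the second. Levels of markers of other cell types were also lower at E13.5 at the median. In GFP- pools the median summed RPKM went from 272.2 to 7.08 for microglia and macrophages, from 250.4 to 4.90 for mesenchyme and pericytes, from 52.4 to 5.58 for endothelium and from 30541 to 92.4 for red blood cells, over 10 markers each. The GFP+ medians went from 3.52 to 1.46 for microglia, from 25.25 to 3.58 for mesenchyme, from 10.47 to 9.67 for endothelium and from 55.5 to 14.9 for red blood cells. The part of any of these cell types in the members' fall was not tested.

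Atf3, a factor of the ATF and CREB family that is induced by many stresses, went from a clear level to almost none. Its lowest, median and highest RPKM were 20.8, 22.8 and 32.97 in GFP+ pools at E10.5 and 14.1, 20.9 and 33.4 in GFP- pools. At E13.5 they were 0, 0.0840 and 2.24 in GFP+ pools and 0, 0.292 and 29.5 in GFP- pools, with 3 of 6 pools listed at 0 in each class. No E13.5 pool reached the E10.5 range except 1 GFP- pool, described below. The log2 difference was -4.09 ± 0.565 (SE) in GFP+ pools (limma adjusted p = 8.98e-07) and -3.37 ± 0.565 in GFP- pools (limma adjusted p = 2.01e-05), on a scale whose pseudocount of 1 understates the change of low values. Without E13.5 GFP- pool 5 the GFP- difference was -4.13 (limma adjusted p = 3.19e-10).

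Jun, the main partner of Fos in AP-1, was 34.2, 41.2 and 48.2 RPKM (lowest, median and highest) in GFP+ pools at E10.5 and 35.7, 49.7 and 81.7 in GFP- pools. At E13.5 it was 7.22, 9.83 and 16.9 in GFP+ pools and 7.24, 12.01 and 14.5 in GFP- pools. Every E13.5 pool lay below every E10.5 pool in both classes. Jun fell 3.55-fold in GFP+ pools (log2 difference -1.83 ± 0.204, limma adjusted p = 2.75e-08) and 4.25-fold in GFP- pools (-2.09 ± 0.204, limma adjusted p = 4.92e-09). Ier2 had the highest level of all members at E10.5, at 147.6, 191.8 and 225.1 RPKM in GFP+ and 155.1, 172.5 and 195.5 in GFP- pools. At E13.5 it was 38.3, 66.04 and 71.5 RPKM in GFP+ and 31.1, 55.03 and 68.4 in GFP- pools. The stages again did not overlap in either class, and Ier2 fell 3.03-fold (log2 difference -1.60 ± 0.162, limma adjusted p = 5.14e-09) and 3.34-fold (-1.74 ± 0.162, limma adjusted p = 2.16e-09). Groups that do not overlap, lower at E13.5, were seen for 17.1% of all genes in GFP+ pools and 14.3% in GFP- pools.

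Fos and Fosb fell less. Fos was 87.5, 101.2 and 132.96 RPKM (lowest, median and highest) in E10.5 GFP+ pools, against 53.5, 64.3 and 67.4 in those of E13.5, with no overlap. In GFP- pools it was 41.3, 77.5 and 115.8 RPKM at E10.5, against 31.3, 39.6 and 59.9 at E13.5, where 1 E10.5 pool lay inside the E13.5 range. The fall was 1.71-fold in GFP+ pools (log2 difference -0.78 ± 0.185, limma adjusted p = 0.000949) and 1.68-fold in GFP- pools (-0.75 ± 0.185, limma adjusted p = 0.00155). Fosb, a second partner of Jun proteins, was at a mean of 9.62 ± 2.07 RPKM (SD, n = 6) in GFP+ and 8.44 ± 4.12 in GFP- pools at E10.5, against 3.96 ± 1.38 and 2.55 ± 1.105 at E13.5. It fell by 1.12 ± 0.288 on the log2 scale in GFP+ pools (limma adjusted p = 0.00195) and by 1.33 ± 0.288 in GFP- pools (limma adjusted p = 0.00042), and its stages overlapped in both classes.

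Egr1, a zinc finger factor induced through MAP kinases and serum response factor, differed in its change between stages from one GFP class to the other. In GFP+ pools it was 47.6, 78.8 and 94.2 RPKM (lowest, median and highest) at E10.5, against 90.02, 105.9 and 140.7 at E13.5. In GFP- pools it was 105.4, 142.2 and 167.9 RPKM at E10.5, against 39.2, 80.1 and 121.7 at E13.5. By median the order was E10.5 GFP+, E13.5 GFP-, E13.5 GFP+ and E10.5 GFP-, and neighbours in that order overlapped, while the first and the last did not. Egr1 fell by 0.86 ± 0.215 on the log2 scale in GFP- pools (limma adjusted p = 0.00173) and rose by 0.51 ± 0.215 in GFP+ pools (limma adjusted p = 0.0493). The difference between these changes was 1.37 ± 0.305 (limma adjusted p = 0.0055), where 3.93% of all genes were called in that direction, and Egr1 was the 1 member of 9 called there. The rise in GFP+ pools is the weakest call: it was lost in 13 of 24 fits without 1 pool (limma adjusted p from 0.0512 to 0.145), namely without E10.5 GFP+ pools 1, 2, 3 or 5, E10.5 GFP- pools 2, 3, 4 or 6, E13.5 GFP+ pools 1, 2, 5 or 6, or E13.5 GFP- pool 1, and under 4 of 11 other settings.

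Junb and Dusp1 were not called between the stages. Junb, an AP-1 subunit that often opposes Jun, was at 1.44, 5.57 and 11.3 RPKM (lowest, median and highest) in E10.5 GFP+ pools, against 6.42, 9.83 and 12.2 in those of E13.5. In GFP- pools it was at 10.7, 14.9 and 23.3 RPKM at E10.5, against 4.76, 7.53 and 26.9 at E13.5. Its log2 difference was 0.73 ± 0.345 in GFP+ pools (limma adjusted p = 0.0784) and -0.76 ± 0.345 in GFP- pools (limma adjusted p = 0.0726), and the difference between them was 1.49 ± 0.488 (limma adjusted p = 0.073). All 3 pass without the E13.5 GFP- pool 5, which holds the 26.9, at limma adjusted p of 0.038, 0.00557 and 0.00894. The first also passes without E10.5 GFP+ pool 5 (0.0292), as does the third (0.0363), and the second passes without E10.5 GFP+ pool 4 (0.0431). Dusp1 differed by 0.25 ± 0.169 and -0.14 ± 0.169 on the log2 scale, at limma adjusted p of 0.226 and 0.533. Its E13.5 levels (lowest, median and highest) were 54.5, 77.7 and 101.9 RPKM in GFP+ and 73.6, 93.2 and 117.1 in GFP- pools.

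**Figure D1:**
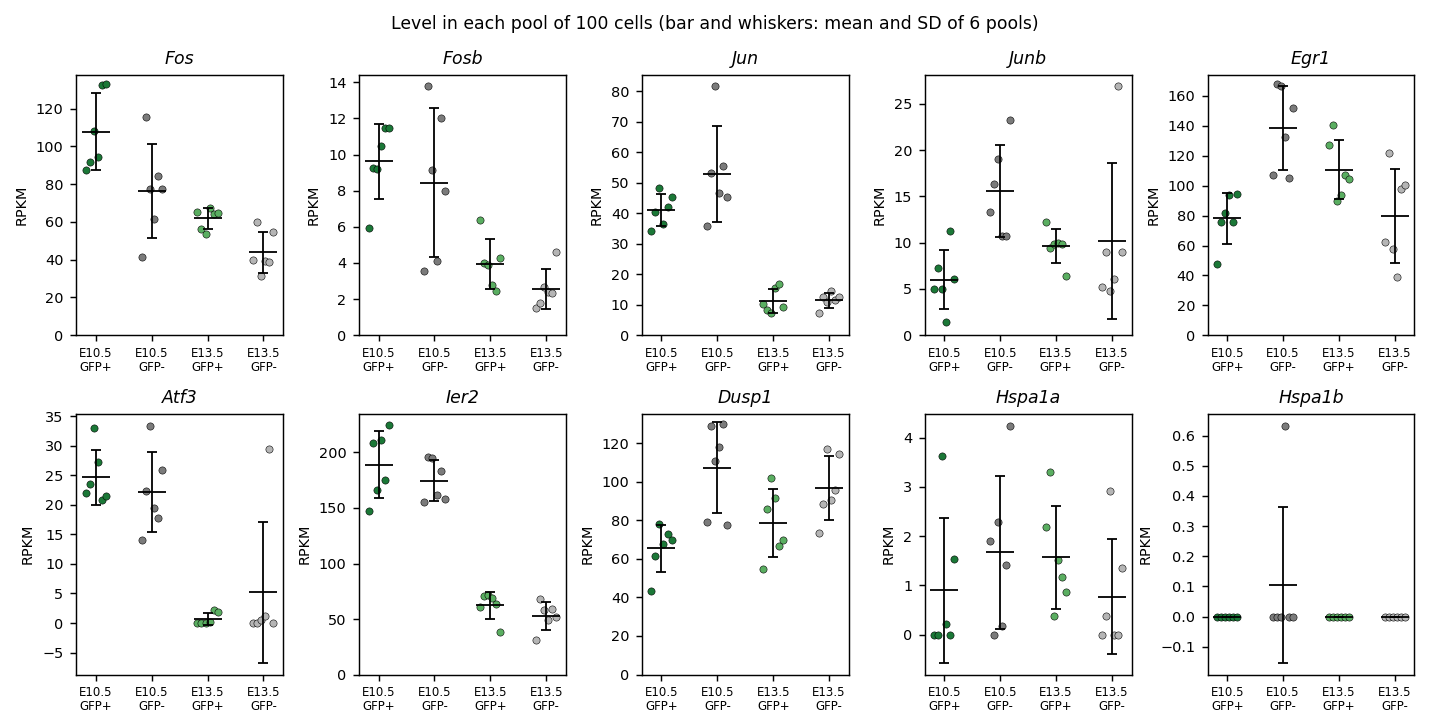
RPKM (vertical axis, linear, own scale per gene) of each of the 10 genes in each of the 24 pools, by stage and GFP class, with bars and whiskers for the mean and SD of 6 pools. Jun and Ier2 have no overlap between E10.5 and E13.5 in either class, Atf3 is near 0 at E13.5 save for 1 pool at 29.5, and Hspa1a stays at or below 4.24.

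At E10.5 the GFP classes differed in 3 of the 9 members tested: Junb, Egr1 and Dusp1 were lower in GFP+ pools, against 8.64% of all genes that were lower there (1371 lower and 715 higher, or 1138 and 1004 with pools scaled to the same sum). Dusp1 was 43.1, 68.6 and 77.9 RPKM (lowest, median and highest) in GFP+ and 77.6, 114.3 and 129.6 in GFP- pools, so the classes touched at 1 pool each. Its level was 1.62-fold lower (log2 difference -0.70 ± 0.169, limma adjusted p = 0.00488). Egr1 was 1.77-fold lower (-0.83 ± 0.215, limma adjusted p = 0.00899) with no overlap between the classes, which 4.26% of all genes showed in that direction. Junb was 2.53-fold lower (-1.34 ± 0.345, limma adjusted p = 0.00806), with the highest of 6 GFP+ pools inside the GFP- range. Each of these 3 calls held in all 24 fits without 1 pool and under 11 other settings.

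Other cell types moved with this comparison. In E10.5 GFP- pools the summed RPKM of 10 microglia and macrophage markers was 7.72 to 661, against 1.17 to 5.99 in GFP+ pools, where 6 of the 10 markers were listed at 0 in every pool (C1qa, C1qb, C1qc, Tyrobp, Aif1 and Ptprc). Summed markers of mesenchyme and pericytes were 141.1 to 366 against 17.9 to 37.3, those of endothelium 20.8 to 188 against 7.17 to 14.02, and those of red blood cells 42.9 to 78507 against 39.4 to 82.8. All 8 neuronal markers were lower in GFP+ pools, at a summed 277 to 457 RPKM against 1273 to 2317. Of the markers tested, 9 of 10 of microglia, 7 of 9 of mesenchyme, 5 of 6 of endothelium and 7 of 9 of red blood cells were called lower in GFP+ pools. The part of these cells in the lower Junb, Egr1 and Dusp1 was not tested.

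Fos was the member closest to a call in the other direction. Its log2 difference at E10.5 was 0.54 ± 0.185 in GFP+ against GFP- pools (limma adjusted p = 0.0537), where 4.51% of all genes were called higher. It passed without E10.5 GFP+ pool 1 (0.0461), E10.5 GFP- pool 2 (0.0119) or E13.5 GFP- pool 2 or 3 (0.0461 and 0.0478), and under 3 of 11 other settings. Fosb, Jun, Atf3, Ier2 and Hspa1a had log2 differences between -0.55 and 0.27 at E10.5 and did not pass.

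At E13.5 none of 9 members was called between the classes by limma, against 7.15% of all genes in either direction. At an unadjusted p under 0.05 there were 2, Fos (log2 difference 0.51 ± 0.185, limma adjusted p = 0.0982) and Egr1 (0.55 ± 0.215, limma adjusted p = 0.138). By the exact permutation test over pools, two-sided and adjusted for nothing, Fos reached p = 0.0108 and Egr1 p = 0.0758, where 0.00216 is the smallest p that 6 pools against 6 allow. Fos also passed the limma threshold without E10.5 GFP- pool 1 (adjusted p = 0.0482). Dusp1, called at E10.5, differed by -0.31 ± 0.169 at E13.5 (limma adjusted p = 0.317), and the difference between the stages was 0.39 ± 0.24 (limma adjusted p = 0.419).

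**Figure D2:**
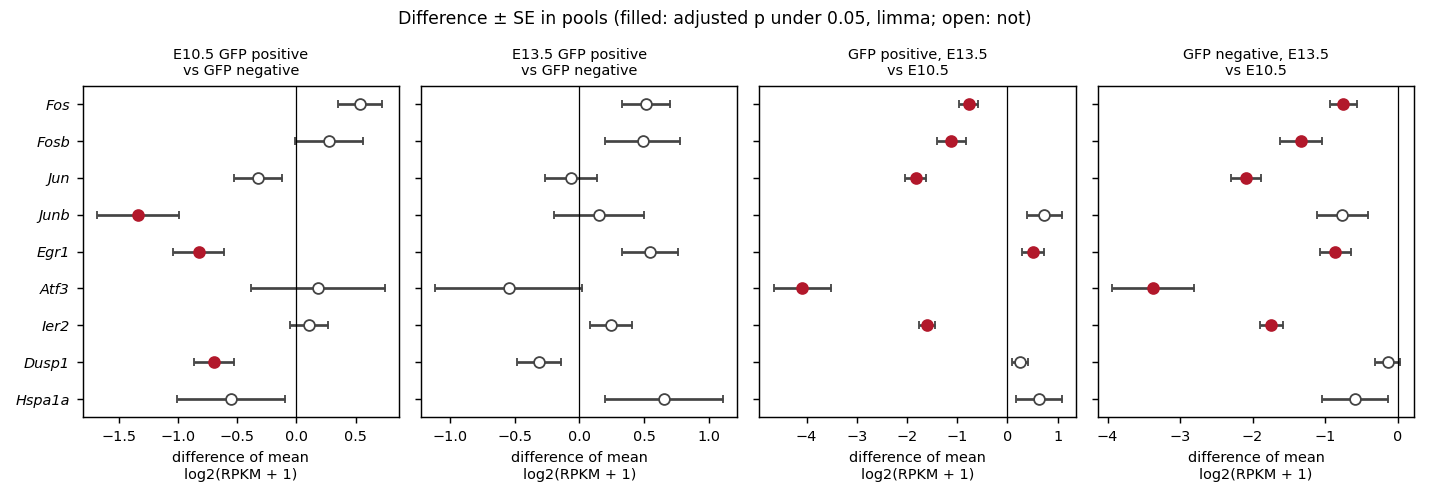
Difference in mean log2(RPKM + 1) with its standard error (horizontal axis, own scale per panel) for the 9 members tested, in the 2 comparisons of GFP classes and the 2 of stages, which share pools. Filled points passed an adjusted p of 0.05: 3 members at E10.5, none at E13.5, 6 between stages in GFP+ and 6 in GFP- pools.

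One GFP- pool at E13.5, pool 5, stood apart in Atf3 and Junb. It held Atf3 at 29.5 RPKM, against 0 to 1.16 in the other 5, and Junb at 26.9, against 4.76 to 9.04. Its summed microglia and macrophage markers were 357.5 RPKM, against 0 to 13.04, and its summed red blood cell markers 20094, against 28.6 to 23247. The part of these cells in its Atf3 and Junb was not tested. Fos, Fosb, Jun, Egr1, Ier2 and Dusp1 lay inside the range of the other 5 pools there.

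The heat shock pair stayed near the bottom of the scale in every group. Hspa1a was at 0 to 3.63 RPKM in E10.5 GFP+ pools, 0 to 4.24 in E10.5 GFP-, 0.370 to 3.30 in E13.5 GFP+ and 0 to 2.92 in E13.5 GFP- pools, so all 4 groups overlapped. None of the 4 comparisons of groups called it, with log2 differences between -0.58 and 0.65 and limma adjusted p from 0.265 to 0.499. Hspa1b was listed at 0 in 23 of 24 pools and at 0.633 RPKM in 1 E10.5 GFP- pool, and was too low to be tested. Their constitutive relative Hspa8, named here after its values were seen, lay between 827 and 1719 RPKM in the same pools, and Hsf1 between 9.62 and 22.9.

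Other chaperones were tested in the same pools, where 29.6% of all genes fell and 22.1% rose between the stages in GFP+ and 26.9% and 19.7% in GFP- pools. Of 15 tested chaperones that heat shock can also induce, 6 fell and 1 rose between the stages in GFP+ pools, and 10 fell and 1 rose in GFP- pools, with a median log2 difference of -0.37 and -0.48. Hspe1, a mitochondrial co-chaperone, fell from a mean of 254 to 97.6 RPKM in GFP+ pools (log2 difference -1.37 ± 0.121, limma adjusted p = 3.89e-10). Bag3, a partner of HSP70 that Hsf1 also drives, fell from 7.88 to 1.61 RPKM in GFP- pools (-1.80 ± 0.343, limma adjusted p = 0.000101). Of 9 constitutive chaperones 7 fell in each class, and 1 rose in GFP+ pools. Hspa4, a relative of HSP70, fell from 72.7 to 18.3 RPKM in GFP+ pools (-1.94 ± 0.219, limma adjusted p = 3.48e-08) and from 80.4 to 25.9 in GFP- pools (-1.61 ± 0.219, limma adjusted p = 1.07e-06). Hsf1 and Hsf2 were tested and neither passed in any comparison by limma.

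Among 25 further early response genes, 11 fell and 3 rose between the stages in GFP+ pools and 12 fell and 2 rose in GFP- pools, against the same shares of all genes (29.6% and 26.9% fell, 22.1% and 19.7% rose). Cyr61, a secreted matrix protein and target of serum response factor and YAP, fell from 99.8 to 7.07 RPKM in GFP+ pools (log2 difference -3.75 ± 0.283, limma adjusted p = 2.22e-11) and from 41.4 to 4.05 in GFP- pools (-3.04 ± 0.283, limma adjusted p = 2.00e-09). Arc, known as a neuronal activity gene, was higher in GFP+ than GFP- pools at E10.5, at 9.99 against 1.87 RPKM (1.93 ± 0.379, limma adjusted p = 0.000631). Egr2, a close relative of Egr1, was also higher there, at 5.15 against 0.964 RPKM (1.72 ± 0.422, limma adjusted p = 0.00536), which is the reverse of the direction of Egr1. Gadd45b, a growth arrest gene, was lower there, at 0.681 against 6.5 RPKM (-2.06 ± 0.514, limma adjusted p = 0.00629).

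Of 10 other feedback regulators of MAP kinases tested, 5 fell and 2 rose between the stages in GFP+ pools, and 6 fell and 2 rose in GFP- pools. The count that rose is near the share of all genes (22.1% and 19.7%), and 29.6% and 26.9% of all genes fell. Dusp6, which acts on ERK kinases, was at 116.8 RPKM in E10.5 GFP+ pools against 47.1 in GFP- ones (log2 difference 1.31 ± 0.202, limma adjusted p = 3.54e-05), and fell to 21.8 and 16.9 RPKM at E13.5. Dusp4 and Dusp8 were lower in GFP+ pools at E10.5, as Dusp1 was, by 0.98 ± 0.202 and 0.88 ± 0.183 on the log2 scale (limma adjusted p = 0.00107 and 0.00119). Dusp4 rose to E13.5 in GFP- pools (1.53 ± 0.202, limma adjusted p = 5.99e-07), and its mean in GFP+ pools went from 6.23 to 20.2 RPKM. The mean of Dusp8 went from 11.1 to 40.2 RPKM in GFP+ and from 21.3 to 44.1 in GFP- pools. Of the other AP-1 genes only 3 of 6 were high enough to test. Fosl1 rose in GFP+ pools (from 0.0374 to 2.04 RPKM, limma adjusted p = 0.00292) and Batf3 fell in GFP- pools (from 2.28 to 0 RPKM, limma adjusted p = 0.0128). In the integrated stress response, a translation control pathway whose factor Atf4 is known to induce Atf3, 4 of 11 genes were lower and 1 higher in GFP+ pools at E10.5, against 8.64% and 4.51% of all genes. Atf4 was among them, at 215 against 297 RPKM (-0.46 ± 0.095, limma adjusted p = 0.00101), and so was its target Ddit3, at 85.3 against 134.8 RPKM (-0.65 ± 0.156, limma adjusted p = 0.00451), while Atf3 itself differed by 0.18 ± 0.565 (limma adjusted p = 0.891). Of 15 kinases and factors upstream of the early genes, 3 rose and 4 fell between the stages in GFP+ pools, and 2 rose and 5 fell in GFP- pools, against 22.1% and 29.6% of all genes in GFP+ and 19.7% and 26.9% in GFP- pools. Mapk8, the kinase JNK1 that activates Jun protein, rose from 20.8 to 79.1 RPKM in GFP+ pools (1.88 ± 0.165, limma adjusted p = 3.56e-10) and from 26.3 to 52.8 in GFP- pools (0.98 ± 0.165, limma adjusted p = 1.97e-05).

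In single cells, presence means an RPKM of 10 or more, shares carry exact 95% Clopper-Pearson intervals that cover counting error only, and no test was made between stages. Over E10.5, E11.5, E12.5 and E13.5, in that order here and below, Jun was present in 79.6% (interval 71.8 to 85.97), 34.4%, 25.8% and 13.1% (19 cells, interval 8.08 to 19.7) of cells. The share of Jun was lower at each later stage. Ier2 went from 63.5% (interval 54.8 to 71.6) to 36 of 90 cells, 39.3% and 31.03% (interval 23.6 to 39.2). Jun and Ier2 were at least 2-fold less frequent at E13.5 than at E10.5, 2 of the 7 members found in at least 10% of cells at either stage, a share near the 27.2% of 10592 genes so found. Among cells of like gene number, described below, Ier2 did not differ in this way, at 34.5% and 35.2%. Atf3 went from 8.76% to 2.22%, 1.12% and 0 cells at E13.5, where the interval reaches 2.51% (3 counts of the total would be 2.07%). Jun, Ier2 and Atf3 are the members with the largest falls in pools.

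Fos did not have the pattern of the pools in single cells. It was present in 29.9% of cells (interval 22.4 to 38.3), 14.4% (7.92 to 23.4), 15.2% (10.2 to 21.3) and 35.2% (27.4 to 43.5), with mean levels of 46.1, 50.9, 41.2 and 65.2 RPKM. The lowest shares are at the middle stages and the intervals of E10.5 and E13.5 overlap, whereas Fos fell in both classes of pools. Fosb had the same dip, at 19.7%, 5.56%, 1.12% and 10.3%. The 2 tables are separate, and the mix of cells in them differs: EGFP was present in 75.2% of E10.5 cells and 26.9% of E13.5 cells. Within cells with EGFP the share with Fos was 31.1% at E10.5 and 35.9% at E13.5, and within cells without it 26.5% and 34.9%. The part of the cell mix, or of the tables themselves, in the unlike patterns of Fos was not tested.

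Egr1 was present in 29.2%, 35.6%, 36.5% and 36.6% of cells over the stages, with overlapping intervals. Dusp1 was at 62.8% (interval 54.1 to 70.9), 52.2%, 48.9% and 44.8% (36.6 to 53.3), and Junb at 5.84% (2.55 to 11.2), 9 of 90 cells, 15.2% and 15.9% (10.3 to 22.8). The share of Junb was thus 2.72 times as high at the last stage as at the first, where 7.85% of the 10592 genes were at least 2-fold more frequent. Jun and Ier2, which had the highest shares at E10.5 with Dusp1, were below Dusp1, Egr1 and Fos at E13.5, where the intervals of Egr1, Fos and Ier2 overlap. Hspa1a was present in 1, 0, 2 and 4 cells (at E13.5 2.76%, interval 0.757 to 6.91), and Hspa1b in 1 cell of all, at E12.5 and 11.7 RPKM. In the 1 E10.5 cell Hspa1a reached 117.5 RPKM.

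**Figure D3:**
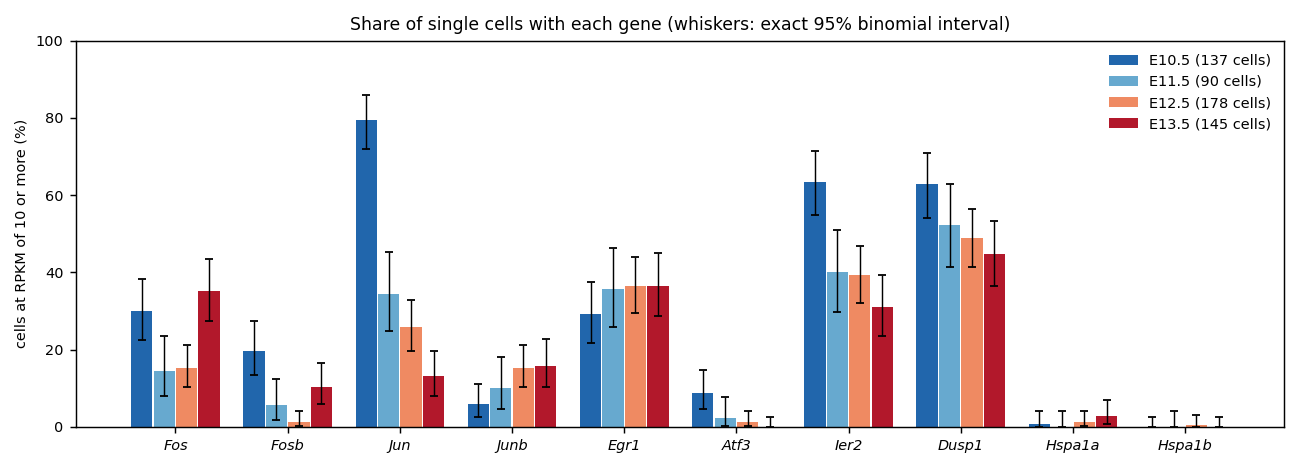
Share of single cells (vertical axis, percent) with each gene at an RPKM of 10 or more at 4 stages, with exact 95% intervals as whiskers. Jun goes from 79.6% to 13.1%, Fos and Fosb dip at E11.5 and E12.5, Junb goes from 5.84% to 15.9%, and the heat shock pair is at or below 2.76%.

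Co-detection of the members in a cell was highest at E10.5. At least 5 of the 10 were present in 29 cells (21.2%, interval 14.7 to 28.97) at E10.5, and in 4 (4.44%, 1.22 to 10.99), 6 (3.37%, 1.25 to 7.19) and 5 cells (3.45%, 1.13 to 7.86) at the later stages. The E10.5 interval lies above the other 3, but it overlaps that of the E12.5 cells with titles in C (9.52%, 3.58 to 19.6), described below. All titles of E10.5, E11.5 and E13.5 cells begin with E, J and G, respectively. Stage and set of titles therefore cannot be told apart. The most in any cell was 8, at E10.5, and none was present in 7.30%, 12.2%, 12.9% and 17.2% of cells. Cells with more members also had more genes: at E10.5 the median was 3734 genes in cells with 0 or 1 member, 5776 with 2 to 4 and 6109 with 5 or more, and at E13.5 it was 3762, 4455 and 5381. Among cells with 3500 to 5000 genes, a range chosen after seeing the data, the share with at least 5 members was 6.90% of 29 cells, 5.56% of 36, 4.35% of 92 and 2.82% of 71 over the stages, and 26 of the 29 E10.5 cells with at least 5 members had more genes than that. Within that range Jun was still present in 75.9% of E10.5 cells and 11.3% of E13.5 cells, and Ier2 in 34.5% and 35.2%. Dusp1, less frequent at E13.5 over all cells, was at 44.8% and 52.1% within it. Atf3 was in 0 of 29 and 0 of 71 cells there, where its share over all E10.5 cells was 8.76%. Without a cell with Atf3 at either stage, the range cannot show whether Atf3 fell.

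At E12.5 the cells with most members came from 1 of the 2 sets of titles. All 6 cells with at least 5 members were among the 63 whose titles begin with C (9.52%, interval 3.58 to 19.6), and none was among those with F, where the interval reaches 3.16% and the most in a cell was 4. At least 3 members were present in 31.7% of C cells and 21.7% of F cells, with overlapping intervals (20.6 to 44.7 and 14.6 to 30.4). What the letters stand for is not labelled. The C cells had a median of 4439 genes and 1.77 M reads and the F cells 4178 genes and 1.26 M reads. Ier2 was present in 50.8% of C cells and 33.04% of F cells, with intervals that overlap (37.9 to 63.6 and 24.6 to 42.4).

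**Figure D4:**
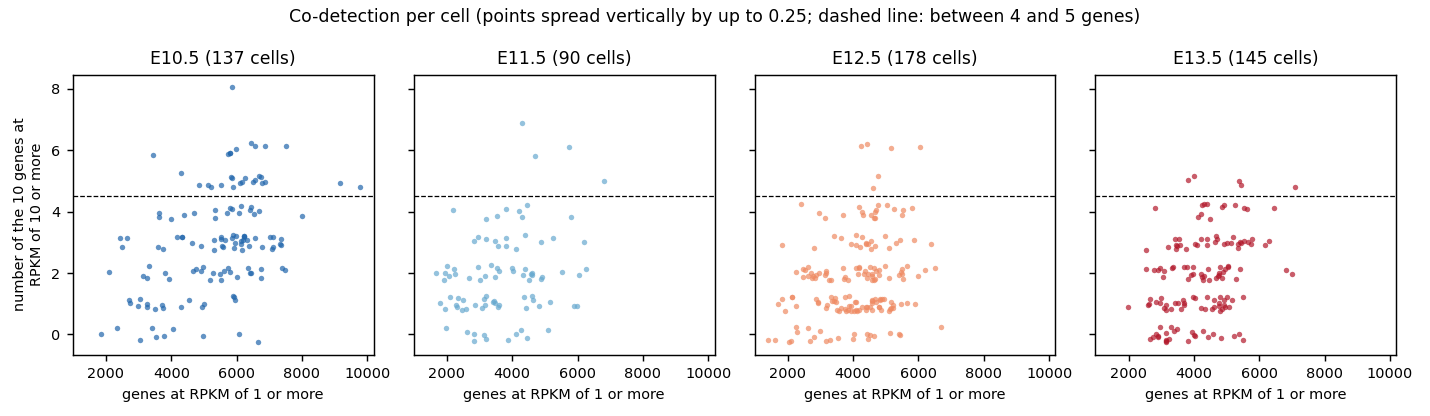
Number of the 10 genes present in a cell (vertical axis, points spread by up to 0.25) against the number of genes at an RPKM of 1 or more (horizontal axis), 1 panel per stage, 1 point per cell. At E10.5, 29 points lie above the dashed line between 4 and 5 genes, and 26 of them lie above 5000 genes on the horizontal axis, while 4, 6 and 5 points lie above the line at the later stages.

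Some pairs were found together more than others, and those given here are a selection of all pairs. Egr1 was present in 74.1% of the 27 E12.5 cells with Fos (interval 53.7 to 88.9) and 29.8% of those without it (22.6 to 37.8), and in 48.8% against 20.8% at E10.5 (32.9 to 64.9 and 13.2 to 30.3). At E11.5 and E13.5 these intervals overlapped, at 46.2% against 33.8% and 45.1% against 31.9%. Fosb was present in 5 of 13 E11.5 cells with Fos and 0 of 77 without, and in 14 of 41 against 13 of 96 at E10.5. Dusp1 was present in 34 of 40 E10.5 cells with Egr1 and in 53.6% of 97 without, with intervals of 70.2 to 94.3 and 43.2 to 63.8. At the later stages Dusp1 was in 65.6%, 63.1% and 54.7% of cells with Egr1 and in 44.8%, 40.7% and 39.1% without, with overlapping intervals. Junb and Egr1 met in 7 of the 8 E10.5 cells with Junb, against 25.6% of cells without it. The cells with both included some of the deepest E10.5 libraries, at 4.85, 6.45, 6.62 and 7.62 M reads, where the stage median was 1.28. The part of depth in this pair was not tested. At the later stages Egr1 was in 44.4%, 59.3% and 47.8% of cells with Junb and 34.6%, 32.5% and 34.4% without, again with overlapping intervals. Ier2 and Dusp1, 2 of the 3 most often detected members, were not found together beyond their own shares after E10.5: Dusp1 was in 18 of 36, 33 of 70 and 18 of 45 cells with Ier2 at the 3 later stages, and 53.7% of those without it at E11.5. Rank correlations of levels within a stage were at most 0.458 over all these pairs, and cells with a member had more genes in most of them. At E10.5 the median was 5829 genes with Junb against 5746 without it, and 5856 against 5517 for Fos. For Ier2 the gap was larger, at 5921 against 4769.

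Genes outside the list whose levels went most with the number of members present, by mean Spearman rho over the 4 stages, were Sh2d3c, Lcor, Dusp8, Pnpla8, Rtn4, Hypk, Zfp57, Mapk8ip2, E130309F12Rik and Sept3, from 0.259 down to 0.228, with a median of 0.0756 over 6963 genes. The number of genes per cell itself gave 0.314, above all of them. No value here separates these weak correlations from the number of genes found in a cell.

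Some members divided by cell state within a stage. Cells were split by Stmn2 and Mapt, a microtubule regulator and a microtubule protein of neurons, and those with both were compared with those with neither. Dusp1 was present in 57 E13.5 cells with both (53.8%, interval 43.8 to 63.5) and 1 of 25 with neither (interval 0.101 to 20.4%). At E12.5 it was in 70 cells with both (65.4%) and 7 of 41 with neither (17.1%, intervals 55.6 to 74.3 and 7.15 to 32.1), and at E11.5 in 24 of 32 and 15 of 37 (56.6 to 88.5 and 24.7 to 57.9, which overlap slightly). The Dusp1 share was thus higher in cells with neuronal transcripts at each of these 3 stages, and the median number of genes was alike, at 4390 against 4042, 4259 against 4566 and 3589 against 3530. Of 20 E13.5 cells with Th and Nr4a2, genes of dopamine neurons, 12 had Dusp1.

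Egr1 went with Dusp1, at 47.7% against 14.6% at E12.5 (intervals 37.9 to 57.5 and 5.57 to 29.2) and 16 of 32 against 8 of 37 cells at E11.5, where the intervals overlap, as they do at E13.5 (40.6% against 7 of 25). Jun went the other way, at 8 of 32 cells with both neuronal transcripts and 22 of 37 with neither at E11.5 (11.46 to 43.4% and 42.1 to 75.3, overlapping slightly), and 18.7% against 41.5% at E12.5 (11.8 to 27.4 and 26.3 to 57.9). Ier2 had the order of Jun with overlapping intervals, at 29.9% against 51.2% at E12.5 and 27.4% against 10 of 25 at E13.5. Fos was at 36.8% against 9 of 25 at E13.5, and Fosb at 7.55% against 6 of 25. The share of cells with Stmn2 was 8.76%, 57.8%, 75.8% and 82.1% over the stages.

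**Figure D5:**
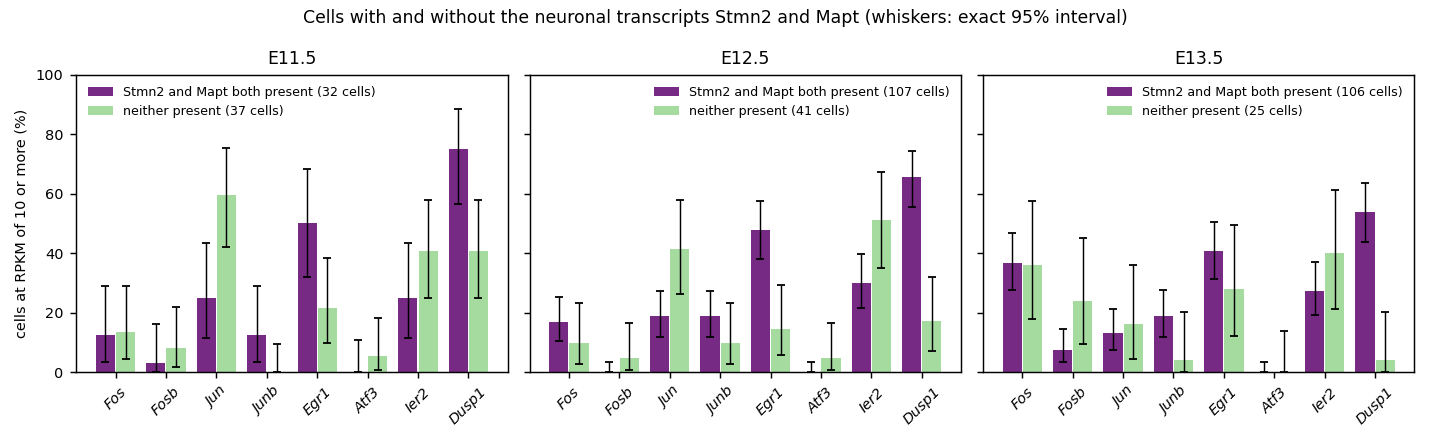
Share of cells (vertical axis, percent) with each early gene, for cells with both Stmn2 and Mapt and cells with neither, at E11.5, E12.5 and E13.5, with exact 95% intervals as whiskers. Dusp1 stands at 65.4% and 53.8% at the last pair of stages in cells with both and at 17.1% and 1 of 25 in cells with neither, and Jun has the opposite order at E11.5 and E12.5.

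At E10.5 only 6 cells had both neuronal transcripts, and 5 of them had at least 5 members, against 23 of the cells with neither (18.5%, interval 12.1 to 26.5). Jun and Dusp1 were present in all 6, Egr1 and Ier2 in 5, Fos and Junb in 4 and Fosb in none. Over all E10.5 cells Jun was in 79.6%, Dusp1 in 62.8%, Ier2 in 63.5%, Egr1 in 29.2%, Fos in 29.9% and Fosb in 19.7%. Jun was thus not less frequent in these 6 cells, unlike in cells with both transcripts at E11.5 and E12.5. Junb was in 3 of the cells with neither (2.42%, interval 0.502 to 6.91). These 6 cells had a median of 5899 genes, against 5747. Depth at E10.5 ran from 0.396 to 7.62 M reads, with a median of 1.28. Whether these 6 cells were deeper than the rest is not given here, and the part of depth in their counts was not tested. Fosb was in 22 of 69 E10.5 cells with Mki67, a marker of dividing cells, and 5 of 68 without it (31.9% and 7.35%, intervals 21.2 to 44.2 and 2.43 to 16.3), where the median number of genes was 6130 and 5052.

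Cells with EGFP at an RPKM of at least 10 stand for the GFP+ class only loosely, since no sort is labelled for single cells. At E10.5 Junb was in 3 cells with EGFP and 5 of 34 without it (2.91% and 14.7%, with overlapping intervals of 0.605 to 8.28 and 4.95 to 31.1), in the direction of the pools. Egr1 and Dusp1, lower in GFP+ pools at E10.5, were at 31.1% against 23.5% and 63.1% against 61.8%. At E13.5 Dusp1 was in 11 of 39 cells with EGFP (28.2%) and 50.9% without it (15 to 44.9 and 41.1 to 60.8), and Ier2 in 48.7% against 24.5% (32.4 to 65.2 and 16.7 to 33.8). Fosb was in 23.1% against 5.66% there (11.1 to 39.3 and 2.11 to 11.9). No single cell had 3 or more markers of microglia, endothelium or mesenchyme, and 1 E12.5 cell had 3 or more of red blood cells.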

How the data were processed

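The 10 genes, the related gene lists and the tests were chosen with earlier results of these data known. The genes were matched by symbol. Per the submitters' processing notes, reads were aligned with STAR 2.3.0 to mm10. Not given in the sources used here are the read counter, the annotation and the filters. The table of pools, as the authors deposited it, holds RPKM. The table of cells, as deposited, holds log2 values. Its smallest entry is the log2 of 0.001, so 0.001 was taken as the constant added to RPKM and was subtracted again.

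Depth was estimated from the step of low values. In the median pool 26.8% and in the median cell 38.6% of such values came within 0.05 of a whole read, against 10% by chance, so depth is rough and no count test was run.

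The 15871 genes tested reached an RPKM of 1 in 6 or more of the 24 pools, and 9 of the 10 members were among them. On the scale log2(RPKM + 1), limma 3.58.1 (R 4.3.3) estimated 4 group means with a variance trend, with Benjamini-Hochberg adjustment over all genes tested. The fit was tested on simulated data. Fold changes are on the log2(RPKM + 1) scale. Single values also had an exact permutation test over pools (scipy 1.17.1). Cells were described without p-values. Of each related list the text gives counts and some of the up to 4 called genes with the largest log2 difference in a comparison. Pools are numbered in accession order, which pairs nothing. Alternatives were other pseudocounts, filters, scalings and weights, leaving out each pool, other cutoffs for presence, and cells of like gene number, the last chosen after seeing the data. Promoters were matched by symbol, and 8 of 10 were found.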

Additional observations from a re-analysis of the deposited data

Results flagged for a closer look

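In 6 of 40 sets of 6 pools checked (10 genes in 4 groups), the highest or lowest pool stood apart from the other 5 by a Dixon test at 95%, which flags about 1 in 20 sets by chance. Atf3 at 29.5 RPKM and Junb at 26.9 were the highest values of E13.5 GFP- pools, both in pool 5. In E10.5 GFP+ pools Egr1 had a low value of 47.6 RPKM and Fosb one of 5.93. Ier2 had a low value of 38.3 RPKM in E13.5 GFP+ pools. Hspa1b had its only value above 0, 0.633 RPKM, in an E10.5 GFP- pool. With the other 5 pools at 0, any value above 0 would have been flagged there. The groups where Hspa1b was 0 in every pool could not be flagged.

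The difference of Egr1 between GFP classes changed between the stages by 1.37 on the log2 scale (limma adjusted p = 0.0055), from lower to higher in GFP+ pools, although the E13.5 difference alone did not pass.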

How the results depend on the processing

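No called log2 difference of a member changed sign under the alternatives run; of the members' differences, 505 kept their side of the threshold under other settings, 8 came to pass it and 4 no longer did, and without 1 pool these were 1056, 11 and 13. The members called were 3 at E10.5 and 0 at E13.5 between GFP classes, 6 between stages in each class and 1 for the difference between stages. The exact permutation test, at an unadjusted p under 0.05, gave 4 at E10.5 (Fos added), 1 at E13.5 (Fos), 7 between stages in GFP+ pools (Junb added) and 6 in GFP- pools; array weights gave 2 for the difference between stages, and fits without 1 pool gave 3 to 4, 0 to 1, 5 to 7 (GFP+), 6 to 7 (GFP-) and 1 to 2. Scaling to the same sum moved the median of all genes in the stage comparison of GFP- pools by 0.12, quantile normalization by 0.11 and testing without a filter by 0.11, the last also by 0.14 in GFP+ pools. Cells with at least 5 members were 8.76% at E10.5 and 1.12% at E12.5 at an RPKM of at least 50, 9.52% at E12.5 in titles C and 0% in titles F, and 6.90% at E10.5 in cells with 3500 to 5000 genes, a range chosen after seeing the data. At least 3 members were present in 62.8%, 26.7%, 25.3% and 33.8% of cells from E10.5 to E13.5. Requiring 1000 genes per cell removed no cell. No paired analysis was possible because the labels give the pools no replicate numbers shared between groups. The depth of the pools is too rough for a floor on genes listed at 0.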
